A study of Mus musculus with 52 samples.

Results

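The effect of losing the long forms of KDM2A and KDM2B on promoter accessibility was followed in Kdm2a/b-JmjCfl/fl mouse embryonic stem cells (mESCs), by comparing all ATAC-seq libraries that the labels assign to this line: 3 from untreated cells and 3 from tamoxifen-treated cells. These are 6 of the 26 ATAC libraries of a study that holds 52 samples, the remainder being input genomic DNA and 3 other conditional lines. In this line the JmjC exons of both genes are floxed and are cut out by a CRE recombinase once tamoxifen is added, and the treated cells received 800 nM 4-hydroxytamoxifen for 96 h. The untreated cells carry the same alleles and the same CRE but received no drug, and the comparison has no tamoxifen-treated cells without loxP sites, so an effect of the drug or of CRE itself cannot be told apart from an effect of the deletion. All 6 libraries come from a single derived line, so the p-values measure the spread between biological replicates of that line. Another of the lines, Kdm2a/b-CXXC, was used only for comparison, with 8 ATAC libraries. In it the exons for the ZF-CxxC domain of both genes, described below, are floxed, and its treated cells also received 800 nM for 96 h.

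CpG islands are stretches of unmethylated, CpG-rich DNA that cover the start sites of most mammalian genes. KDM2A and KDM2B bind these islands through a ZF-CxxC domain, and their long forms (KDM2-LFs) also carry a JmjC domain that removes methyl groups from histone H3 lysine 36. Tamoxifen removes the JmjC exons and with them the long forms, while short forms made from promoters farther downstream keep the ZF-CxxC domain and lack demethylase activity. KDM2B also brings a variant Polycomb repressive complex 1 (PRC1) to CpG islands.

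Calibrated ATAC-seq (cATAC-seq) counts fragments released by the Tn5 transposase from accessible DNA. Drosophila SG4 cells mixed with the mESCs before lysis provide a common reference, and the deposited value, called calibrated reads here, is the number of mouse reads in a promoter interval of 400 bp divided by the size factor of the spike-in. The table holds 20633 promoters, of which 17174 had enough reads to be tested. The libraries held 1528215 to 2091769 promoter reads, and each promoter a median of 58 to 81 reads, and the correlation of log2 values between any pair lay between 0.938 and 0.954. The remaining 3459 promoters had a median of 6.27 calibrated reads and 498 of them belonged to odorant, vomeronasal and taste receptors, which mESCs keep closed.

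The sequence upstream of the start site is shown for 4 promoters on which the results below turn: Ski, Rspo4 and Gxylt2, which had the largest falls among promoters that passed the test, and Gm13580, which had the smallest p among promoters that were higher relative to the others. Each is 200 bases from the GRCm38.p6 genome, printed 5′ to 3′ on the strand of the gene, and capitals mark CpG dinucleotides, which the ZF-CxxC domain recognises when they are unmethylated.
Ski (chr4:155222536-155222735, minus strand): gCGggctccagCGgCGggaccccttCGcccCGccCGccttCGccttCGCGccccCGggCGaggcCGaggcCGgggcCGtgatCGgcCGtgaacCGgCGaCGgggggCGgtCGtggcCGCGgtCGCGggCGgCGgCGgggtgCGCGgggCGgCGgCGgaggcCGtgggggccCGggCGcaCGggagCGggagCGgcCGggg
Rspo4 (chr2:151842727-151842926, plus strand): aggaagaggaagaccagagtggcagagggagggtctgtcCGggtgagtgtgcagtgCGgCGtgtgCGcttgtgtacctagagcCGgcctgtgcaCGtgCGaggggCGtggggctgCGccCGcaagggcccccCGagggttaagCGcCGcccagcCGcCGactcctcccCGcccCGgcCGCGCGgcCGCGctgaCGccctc
Gxylt2 (chr6:100704534-100704733, plus strand): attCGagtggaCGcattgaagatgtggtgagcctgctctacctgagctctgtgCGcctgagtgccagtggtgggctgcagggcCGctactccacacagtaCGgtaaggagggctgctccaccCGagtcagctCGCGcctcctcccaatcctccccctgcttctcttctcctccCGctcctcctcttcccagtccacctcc
Gm13580 (chr2:60411325-60411524, plus strand): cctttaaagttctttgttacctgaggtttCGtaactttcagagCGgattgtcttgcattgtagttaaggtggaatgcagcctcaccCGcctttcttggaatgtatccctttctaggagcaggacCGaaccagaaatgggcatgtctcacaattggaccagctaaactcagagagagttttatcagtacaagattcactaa
The Ski stretch held 40 CpG dinucleotides and the Rspo4 stretch 23, against a median of 12 (quartiles 6 and 19) over 14329 promoters for which the same 200 bases could be read. Gxylt2 had 9 and Gm13580 had 4, both under that median. The letters gggcgg or ccgccc, the core of a GC box, occurred on either strand in 53% of these promoters. They were present in Ski and Rspo4 and absent from the stretches of Gxylt2 and Gm13580.

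The identity of the cells was read from the promoters of marker genes. All 18 promoters on the naive pluripotency list passed the filter on low reads. Their median was 86.6 calibrated reads, beside 86.0 over all tested promoters. The promoters of the core regulators Pou5f1, Nanog and Sox2 had means of 48.6, 54.7 and 157 calibrated reads. Of 13 promoters of fibroblast genes 8 passed, with a median of 35.1 and a range of 10.9 to 58.5. Promoter accessibility is a weak marker of cell type, since promoters of silent CpG island genes are open as well: the endoderm factor Gata4 stood at 61.7 and the neural factor Sox1 at 145. The promoters of the deleted genes lie outside the deleted exons and do not measure the deletion. The Kdm2a promoter (NM_001001984, mm10 chromosome 19, 4396878 to 4397277) had 97.1, 154 and 134 calibrated reads in the untreated libraries and 126, 121 and 129 after tamoxifen, so the groups overlapped. The upstream Kdm2b promoter (NM_001003953) had 38.4, 29.9 and 27.5 against 34.2, 32.1 and 30.7, and the groups overlapped there too. The downstream Kdm2b promoter (NM_013910) had 134, 161 and 151 against 116, 110.4 and 128, with no overlap, but its log2 fold change of -0.33 did not pass the test (limma adjusted p = 0.225).

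Promoters as a whole had lower calibrated values in all 3 treated libraries, by a margin that this design cannot bring past a p of 0.05. For each library the median over the 17174 tested promoters of log2(value over untreated average) was taken, the untreated average being the mean of the 3 untreated libraries. It was -0.019, 0.042 and -0.034 in the untreated libraries and -0.11, -0.31 and -0.23 in the treated libraries. Every treated library lay below every untreated library, with tamoxifen replicate 1 nearest to them. The difference between the group means was -0.21 (exact two-sided permutation p = 0.1, which is the lowest value this design can give). Of the tested promoters 83.4% had a log2 fold change below 0, and the 5th and 95th percentiles of the fold change were -0.59 and 0.24. This shift can be seen only on the spike-in scale. With each library scaled to its own total of promoter reads, which removes a common shift by construction, it was -0.00097. These are bulk libraries, in which fewer accessible cells and a lower accessibility in each cell cannot be told apart.

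**Figure D1:**
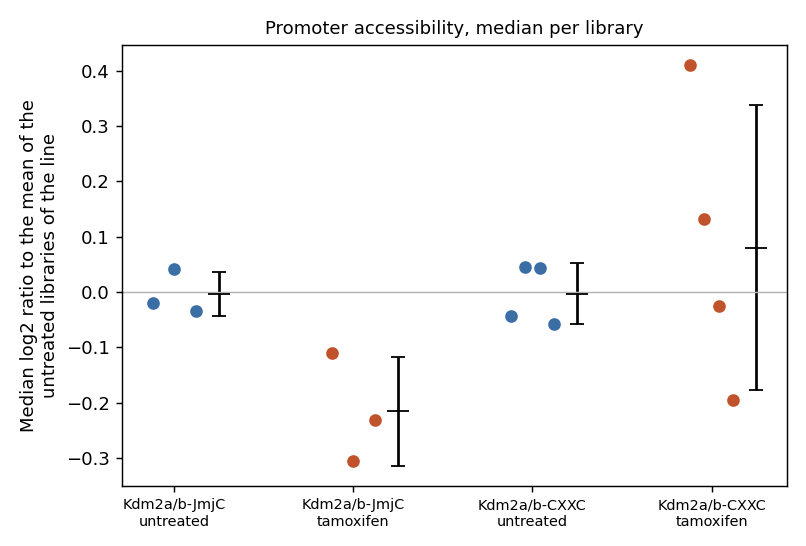
Median over promoters of the log2 ratio of each library to the untreated average of its own line, for Kdm2a/b-JmjC and for Kdm2a/b-CXXC, in which tamoxifen removes the ZF-CxxC domain. Points are libraries, bars give the mean and SD, and the 3 treated Kdm2a/b-JmjC libraries lie below the untreated ones whereas the 4 treated Kdm2a/b-CXXC libraries spread from -0.20 to 0.41.

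The same median was compared with that of Kdm2a/b-CXXC cells, taken over the 16413 promoters with enough reads in that line. There tamoxifen removes the ZF-CxxC domain from both proteins, so that long and short forms leave chromatin. The treated libraries of that line stood at 0.41, 0.13, -0.025 and -0.20 and its untreated libraries at -0.044, 0.045, 0.043 and -0.058. The treated values fell on both sides of the untreated ones. The response of Kdm2a/b-JmjC minus that of Kdm2a/b-CXXC was -0.30 (exact two-sided permutation p = 0.0786 over 1400 arrangements of the labels within lines, where the smallest possible is 0.00143). Without Kdm2a/b-CXXC tamoxifen replicate 1 the difference was -0.19 (exact permutation p = 0.176), and with Kdm2a/b-CXXC tamoxifen replicate 4 left out it was -0.39 (exact permutation p = 0.00571), so its size and its call depend on single libraries of that line.

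Single promoters were then tested on the calibrated scale with limma, on log2(calibrated reads + 1). Calls required an adjusted p (Benjamini-Hochberg) under 0.05 together with more than a 1.4-fold difference in either direction. Of 17174 promoters 13 changed (0.0757%), and all of them fell; the count that rose was 0, with 45 higher at an unadjusted p under 0.05 (0.262%) against 3492 lower (20.3%). edgeR on the recovered reads also gave 0 higher, beside 114 lower, and DESeq2 gave 0 higher and 12 lower, of which 3 were among the 13. In 3985 promoters (23.2%) all treated libraries lay below all untreated libraries, and in 156 (0.908%) all lay above.

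The 13 promoters that fell belonged to genes of unlike function. Among genes of signalling, Rspo4 encodes an R-spondin, a secreted protein that strengthens WNT signalling, and its promoter (NM_001040689, mm10 chromosome 2, 151842727 to 151843126) had 109.5, 82.5 and 79.7 calibrated reads in the untreated libraries and 47.0, 34.5 and 48.1 after tamoxifen. Its log2 fold change was -1.05 (SE 0.22, limma adjusted p = 0.0137). Ski encodes a repressor of SMAD transcription factors, and its promoter (NM_011385, chromosome 4, 155222336 to 155222735) had 49.7, 61.7 and 56.8 against 37.4, 29.8 and 10.2. The lowest of these is tamoxifen replicate 3, without which the log2 fold change of Ski moved from -1.26 to -0.73 and was not called. Gab1, an adaptor protein downstream of growth factor receptors, had 261, 267 and 247 against 214, 142 and 168. Ier3, an immediate early gene, had 125, 119 and 108 against 86.5, 51.7 and 54.2, a log2 fold change of -0.90. At each of the 4 promoters the highest treated library lay below the lowest untreated library, with the widest gap at Rspo4 relative to its level.

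Among genes of transcription, Sox12, a SoxC family transcription factor, had 175, 197 and 187 calibrated reads in untreated and 124, 103 and 113 in treated cells. Dlx2, a homeobox factor of the forebrain, had 138, 133 and 104 against 71.5, 88.5 and 58.3. Zmat4, which encodes a zinc finger protein, had 127, 137 and 102 against 50.2, 81.4 and 64.5. All 3 groups of treated values lay below the untreated ones, with log2 fold changes of -0.72 for Sox12, -0.78 for Dlx2 and -0.90 for Zmat4. Msh6, a subunit of the complex that recognises base mismatches after replication, had 212, 217 and 175 against 130.3, 125 and 129.9, a log2 fold change of -0.64.

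The remaining 5 genes encode membrane proteins or enzymes of the secretory pathway. Gxylt2, a xylosyltransferase that extends O-linked glucose on NOTCH, had 103, 90.7 and 85.2 against 49.1, 43.9 and 44.0. Its log2 fold change was -1.01 (SE 0.21, limma adjusted p = 0.0137). Tmem168, which encodes a transmembrane protein, had the smallest adjusted p of all (limma adjusted p = 0.0108), with 143, 132 and 142 against 88.6, 65.8 and 67.5. Tmem231, a protein of the transition zone at the base of the primary cilium, had 339.9, 318 and 266 against 194, 232 and 182. Tmtc4, a mannosyltransferase of the endoplasmic reticulum, had 195, 206 and 189.7 against 155, 97.1 and 122. Vdac3, a channel of the outer mitochondrial membrane, had 277, 320.0 and 292 against 240.2, 187 and 191, the smallest fall of the 13 (log2 fold change -0.53, limma adjusted p = 0.0481).

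**Figure D2:**
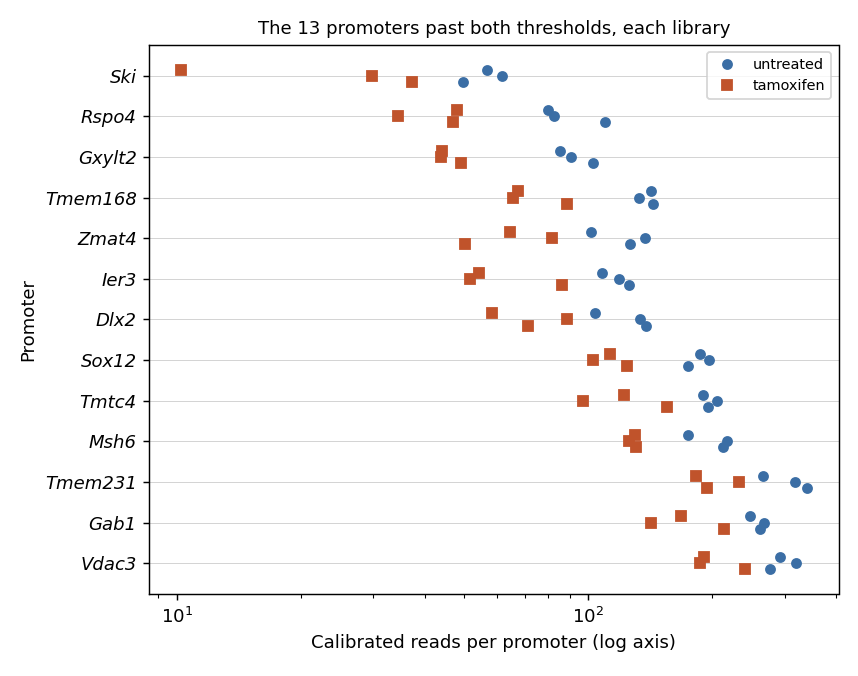
Calibrated reads (log axis) of the 13 promoters past both thresholds, circles for the 3 untreated and squares for the 3 treated libraries. The groups do not overlap at any of the 13, which were selected by these values. The isolated low square at Ski is tamoxifen replicate 3 with 10.2 calibrated reads.

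The GC content of the 13 intervals ran from 58.0% to 79.5% with a median of 70.8%, against 62.5% over all tested promoters. Each interval spans the start site: the Ier3 interval takes in 194 coding bases and that of Ski 185, whereas those of Dlx2, Gab1, Sox12, Tmem168, Tmtc4, Vdac3 and Zmat4 hold no annotated coding base. Tmem231, Zmat4, Gab1 and Vdac3 lie on chromosome 8, which carries 964 of the 17174 tested promoters. In Kdm2a/b-CXXC cells none of the 13 passed the test (limma on the same 17174 promoters). Their calibrated log2 fold changes there ran from -0.40 at Gxylt2 to 0.34 at Tmtc4. Of the 13, 4 were below 0 on the calibrated scale and 10 on the relative scale. The calibrated median of the 13 was 0.044, beside 0.088 over the 17174 promoters in that line. On the relative scale the median over the 17174 promoters there was 0.0021, and the 13 ran from -0.49 to 0.26. Gxylt2 there had 59.7 ± 5.52 calibrated reads in untreated and 45.2 ± 6.23 in treated cells (SD, n = 4 and n = 4; limma adjusted p = 0.994).

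Whether the 13 changes hold depends on the libraries and on the scale. With edgeR's count test there were 114 calls and with a filter of a mean of at least 20 reads 100, and both sets held all 13. With no filter the count was 0. Leaving out tamoxifen replicate 1 gave 622 calls that included all 13, leaving out untreated replicate 3 gave 36 with 11 of the 13, and leaving out tamoxifen replicate 3 gave 3, of which Rspo4 was among the 13. Leaving out untreated replicate 1 or untreated replicate 2 gave 0, with 2855 and 2224 promoters at an unadjusted p under 0.05.

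To separate single promoters from the shift they share, the reads were rescaled by TMM, so that each promoter was measured against the other promoters of its library. The median log2 fold change was then -0.0067, with quartiles of -0.14 and 0.13. On this relative scale 0 promoters were called in either direction (smallest limma adjusted p = 0.667), and 966 (5.62%) had an unadjusted p under 0.05, of which 516 were lower (3.0%) and 450 higher (2.62%). edgeR and DESeq2 also called 0, with 913 and 472 at an unadjusted p under 0.05. The treated libraries lay wholly below the untreated ones at 980 promoters (5.71%) and wholly above at 867 (5.05%). In simulated libraries with the depth and spread of these, 200 promoters changed by a fold of 1.5 were recovered in 44% of cases, by a fold of 2 in 88% and by a fold of 3 in 98.5%. In each run 5 to 8 unchanged promoters were also called. All changed promoters lay above the lowest accessibility quintile, which reached up to 29.7 mean calibrated reads, so recovery at less accessible promoters was not measured. No shift common to all promoters was simulated.

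**Figure D3:**
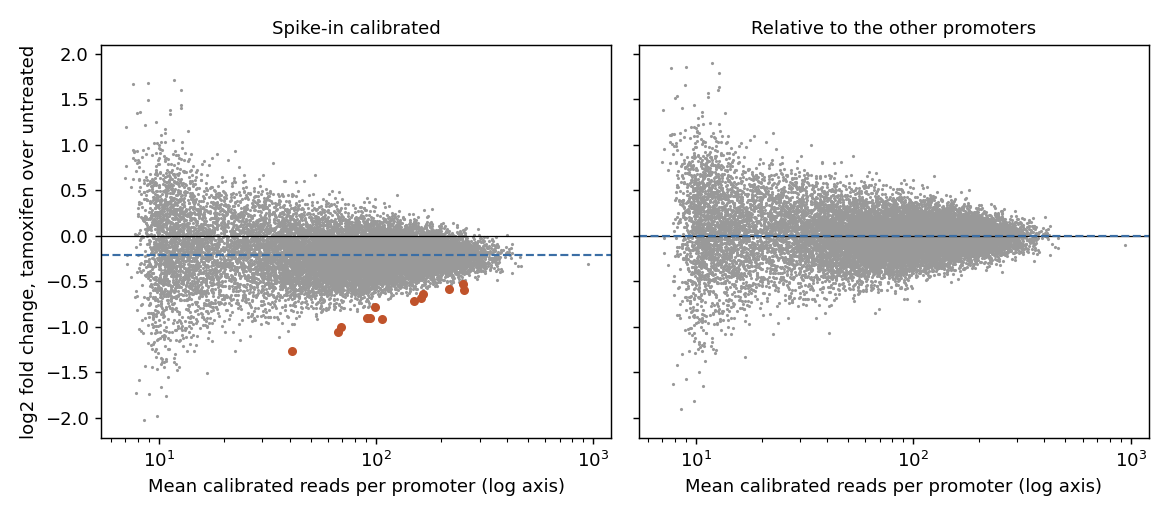
Log2 fold change of each of the 17174 tested promoters against its mean calibrated reads (log axis), calibrated on the left and relative on the right, with the median of all promoters as a dashed line. The cloud on the left is centred at -0.21 and the 13 called promoters (large points) lie along its lower edge, while the cloud on the right is centred at -0.0067 with no called promoter.

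On the relative scale the 13 promoters had log2 fold changes between -1.07 and -0.32, none of them called. The 13 were selected from the same libraries, so their lower values on this scale are no separate evidence. The groups did not overlap in 11 of them, and at Tmem231 and Dlx2 tamoxifen replicate 2 reached into the untreated range. The 5 lower promoters with the smallest unadjusted p were Tmem168, Rspo4, Gxylt2, Ier3 and Zmat4, all among the 13. On the higher side these were Gm13580, Rcsd1, 5530401A14Rik, Atg3 and Mtdh, none of which passed the test. Gm13580, a predicted noncoding transcript (chromosome 2, 60411325 to 60411724), had 91.1, 80.7 and 137 relative reads in the untreated and 167, 132.5 and 179 after tamoxifen. The treated libraries of Gm13580 overlapped the untreated ones, and its relative log2 fold change was 0.65 (SE 0.16, limma adjusted p = 0.667). Rcsd1, which encodes a regulator of actin capping, had 42.8, 41.2 and 32.0 against 79.7, 88.4 and 51.0 relative reads, with no overlap. Mtdh, which encodes a membrane protein also called metadherin, had 159, 156 and 123 against 190.3, 214 and 205. Atg3, an E2-like enzyme of autophagy, had 119, 161 and 196 against 239, 182 and 242, and its interval overlaps that of Slc35a5, so that some reads count for both. 5530401A14Rik had few reads, from 3.66 to 8.78 untreated and from 14.1 to 31.0 treated.

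Whether the change followed the level of accessibility was examined in quintiles of the promoters by mean calibrated reads, which had medians of 14.5, 47.6, 86.0, 130 and 197 calibrated reads. The difference between treated and untreated libraries was -0.13 in the lowest quintile (exact permutation p = 0.3) and -0.22, -0.23, -0.21 and -0.21 in the others (exact permutation p = 0.1 each). In the lowest quintile, tamoxifen replicate 1 stood at 0.0043, above untreated replicates 2 and 3 at -0.021 and -0.072. The difference of the highest quintile minus that of the lowest was -0.082 (exact permutation p = 0.3), with overlapping groups. From the second quintile upwards the difference was therefore nearly even. The median standard error of a single promoter was 0.43 in the lowest quintile and 0.14 in the highest, so the closed promoters carry the least precise fold changes.

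The 5 most accessible promoters were those of Arrdc2, Gm20753, Mir22hg, Smarcd2 and NM_172505, an identifier with no symbol in the annotation used. The last had 1025, 1016 and 1096 calibrated reads in the untreated and 894, 765 and 873 after tamoxifen, with no overlap between the groups. Its adjusted p of 0.0481 (limma) was under the threshold, but its log2 fold change of -0.31 was too small to be counted. Arrdc2, an arrestin family gene, had 527, 540.3 and 479 against 442, 438 and 349, a log2 fold change of -0.34. Smarcd2 (NM_001130187, 1 of 2 promoters of the gene), a subunit of SWI/SNF remodelling complexes, had 508, 484 and 452 against 414, 403 and 356. Mir22hg, the host of a microRNA, had 529, 540.3 and 434 against 392, 395 and 399. At Gm20753 the groups overlapped, since tamoxifen replicate 1 at 491 lay above untreated replicates 2 and 3 at 489.6 and 478. On the relative scale the log2 fold changes of these 5 lay between -0.13 and -0.029.

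The difference between the groups was larger at GC-rich promoters. In quintiles of the GC content of the interval, with medians of 50.8%, 57.8%, 62.5%, 67.5% and 74.0%, the differences were -0.13, -0.17, -0.20, -0.23 and -0.28 (exact permutation p = 0.1 each, the smallest possible). The median of the most GC-rich quintile minus that of the least was -0.036, 0.070 and -0.042 in untreated libraries and -0.15, -0.15 and -0.16 in treated libraries. The treated libraries lay close together and below all untreated ones, a difference of -0.15 (exact permutation p = 0.1). Within quintiles of accessibility it was -0.15, -0.18, -0.17, -0.13 and -0.079 from the least to the most accessible promoters, and the groups overlapped only in the least accessible quintile (exact permutation p = 0.2 there and 0.1 in the others). Conversely, within quintiles of GC content the difference between the most and the least accessible promoters was -0.0038. In Kdm2a/b-CXXC cells the same GC difference was -0.035 (exact permutation p = 0.8286), and the difference between the lines was -0.12 (exact permutation p = 0.28). With Kdm2a/b-CXXC tamoxifen replicate 3 left out, the GC difference of that line was 0.026 and the difference between the lines -0.18 (exact permutation p = 0.02), so this comparison depends on that library.

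**Figure D4:**
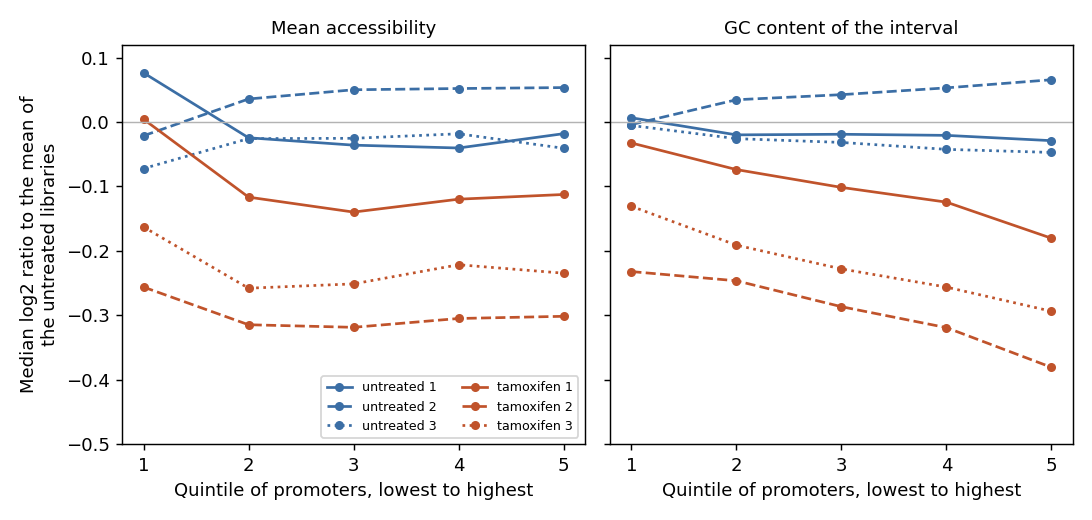
Median log2 ratio to the untreated average for each of the 6 libraries, in quintiles of promoters by mean accessibility (left) and by GC content (right). The treated libraries run nearly level from the second accessibility quintile on, and slope down with GC content, from between -0.23 and -0.033 in the lowest quintile to between -0.38 and -0.18 in the highest.

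Promoters were then described by the function of their genes, on the relative scale, beside the median of -0.0067 and the quartiles of -0.14 and 0.13 over all tested promoters. Of the lists described here none held a promoter called on this scale, in either direction, since none was called at all. The counts given are of promoters whose treated libraries all lay below or all lay above the untreated ones, to be read beside 5.71% and 5.05% of all promoters. Where calibrated reads of a single member are given, they still carry the shift that promoters share. Medians close to 0, such as those of PRC2 and of the immediate early genes, changed sign when single libraries were left out.

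Polycomb genes were taken first because a KDM2B complex recruits variant PRC1. Of 16 tested promoters of variant PRC1, which ubiquitinates histone H2A, 1 lay wholly lower and 1 wholly higher, and their median was 0.027. The lowest value of the list was -0.47 (limma unadjusted p = 0.071), at NM_029510, 1 of 2 promoters of Bcor, a subunit of the KDM2B complex. That promoter had 46.3, 49.9 and 51.3 calibrated reads in the untreated and 40.6, 23.5 and 29.7 after tamoxifen. Pcgf1, the subunit that defines that complex, had the highest at 0.33 (limma unadjusted p = 0.0244), with 119, 170.4 and 139 against 182, 143 and 140.2 calibrated reads. Neither passed the test after adjustment. Canonical PRC1, which reads H3K27 methylation through its CBX subunits, had a median of -0.14 over 12 tested promoters with quartiles of -0.16 and -0.11, and 10 were below 0. No member lay wholly apart on the relative scale. Its lowest member, Scml2 on the X chromosome, had 53.1, 60.7 and 98.1 against 47.0, 27.4 and 48.1 calibrated reads, and its most accessible, Cbx8, had 233, 261 and 166 against 179, 184 and 169.9. PRC2, which methylates H3K27, had a median of -0.026 over 12 promoters. Its most accessible member, Suz12, had a relative log2 fold change of -0.017.

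The canonical PRC1 promoters are GC-rich, with a median of 72.3%. When each library was centred among promoters of like GC content the list's median moved from -0.14 to -0.050, and leaving out 1 library gave medians from -0.24 (untreated replicate 3) to -0.044 (tamoxifen replicate 3). The variant PRC1 promoters, at 71.5% GC, had a median of 0.066 after the same centring.

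Genes that write, remove or read chromatin marks were taken next. The 19 tested promoters of other JmjC demethylases, such as Kdm4a, had a median of -0.0080, with 2 wholly lower and 2 wholly higher. Of 5 promoters of H3K36 methyltransferases 1 was wholly lower and the list ran from Setd2 at -0.15 to Nsd1 at 0.25. Among 11 promoters of ZF-CxxC proteins, which include Kdm2a and both Kdm2b promoters, the median was 0.19 and no member lay wholly apart. That median was 0.012 without untreated replicate 1.

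For pluripotency and lineage genes, the naive pluripotency list had a median of 0.014 over 18 promoters and no member wholly apart. Klf5, its most accessible member, had 329.8, 349 and 379 calibrated reads in the untreated and 329.9, 261 and 331 after tamoxifen. The relative log2 fold change of Klf5 was -9.8e-05. Nr0b1 was the lowest of this list at -0.28 and Tdgf1, the Nodal coreceptor, the highest at 0.39. Genes of the formative and primed states had a median of 0.041 over 18 promoters. Their highest value was 0.57, at NM_001286483, 1 of 3 Otx2 promoters, where 37.3, 32.6 and 33.9 calibrated reads stood against 49.1, 37.6 and 49.1. Mesoderm and primitive streak regulators had the lowest median of the lists with at least 8 tested promoters, -0.16 over 15, with 1 wholly lower and 2 wholly higher. Its lowest member was Gsc, with 73.4, 81.6 and 79.7 against 53.4, 41.5 and 62.4 calibrated reads. The median of this list was 0.0022 without untreated replicate 1 and -0.016 without tamoxifen replicate 1. Primitive endoderm genes had a median of -0.089 over 12 promoters, which ranged from -0.17 with tamoxifen replicate 2 left out to -0.030 with tamoxifen replicate 1 left out, and no member lay wholly apart. Neural regulators had a median of -0.00053 over 24, although they hold Dlx2 and also En1, a homeobox factor of the midbrain, which had 66.6, 60.7 and 88.9 against 41.6, 47.8 and 31.7 calibrated reads.

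Developmental gene families were large enough to read their spread. Of 40 tested Hox promoters 4 lay wholly lower and 1 wholly higher on the relative scale, with a median of 0.0068. The highest was Hoxd12 at 0.87, with 21.5, 28.1 and 20.2 calibrated reads in the untreated and 35.2, 37.6 and 38.9 after tamoxifen, and the lowest was Hoxa7 at -0.48. Of 44 forkhead promoters 4 lay wholly lower and 2 wholly higher, with a median of -0.11, which was -0.16 without untreated replicate 2 and -0.051 without tamoxifen replicate 2. Foxi1, a factor of ion-transporting epithelia, had the lowest value of the family at -1.08, with 28.2, 19.04 and 15.6 against 10.7, 5.48 and 8.19 calibrated reads. The highest value was 0.79, at NM_001197321, 1 of 3 Foxp1 promoters, with 32.8, 31.7 and 37.6 against 45.9, 56.4 and 53.2. Of 43 promoters of Wnt ligands and receptors 4 lay wholly lower and 0 wholly higher, with a median of -0.12 and 28 below 0, and without tamoxifen replicate 3 the median was -0.030. Rspo4, which encodes an R-spondin rather than a WNT protein or receptor, is in this list. It was called on the calibrated scale, where 13 of all 17174 promoters were. Fzd5, the most accessible receptor of the list, had 329.8, 304 and 281 against 299, 226 and 325 calibrated reads, with overlap. The relative log2 fold change of Fzd5 was 0.087. Of 52 promoters of the TGF-beta, BMP and Nodal pathways, which hold Ski, 2 were wholly lower and 1 wholly higher, with a median of -0.030.

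The lists of basal functions had medians close to that of all promoters. The 73 ribosomal protein promoters had a median of 0.032, with 1 wholly lower and 9 wholly higher. Rpl23 was lowest, with 204, 201 and 193 calibrated reads in the untreated and 145, 136 and 159.6 in the treated libraries. The 80 promoters of oxidative phosphorylation had a median of -0.0065, with 3 wholly lower and 3 wholly higher. The 71 promoters of RNA polymerase II, its general factors and Mediator had a median of 0.0061, with 7 wholly lower and 0 wholly higher. Their lowest member was Med13l, a subunit of the Mediator kinase module, with 76.8, 62.6 and 67.8 against 37.4, 53.2 and 38.9 calibrated reads, and their highest was Med4 at 0.30. Among 298 zinc finger (Zfp) promoters the median was 0.036, with 18 wholly lower and 22 wholly higher. The 12 promoters of housekeeping enzymes and the cytoskeleton had a median of -0.030, and Ldha, which encodes lactate dehydrogenase, was lowest with 90.3, 109 and 105 against 60.9, 62.6 and 69.6 calibrated reads.

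Smaller response lists were described in the same way. Of 20 immediate early promoters 3 lay wholly lower and 1 wholly higher, with a median of 0.033, and Ier3 was the lowest. Of 8 mismatch repair promoters 2 were wholly lower and 1 wholly higher, with a median of 0.011, and Msh6 was the lowest at -0.43. Of 19 interferon and viral sensing promoters 3 were wholly lower and 0 wholly higher, with a median of 0.043 and 9 below 0. Rsad2, which encodes the antiviral protein viperin, was lowest at -0.87 on 8 to 29 reads per library, and Zbp1 highest at 0.44. The 16 promoters of cell cycle inhibitors and p53 genes had a median of -0.042, and Cdkn1c, an imprinted inhibitor, was lowest at -0.30. The 18 germline promoters had a median of -0.032, and the 33 imprinted promoters one of -0.043.

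Lists with many nearly closed promoters were described last. Of 87 keratin and skin barrier promoters 36 passed the filter on low reads, with a median level of 14.5 calibrated reads, a median relative log2 fold change of 0.18 and quartiles of -0.092 and 0.48. That median ranged from 0.069 with tamoxifen replicate 1 left out to 0.35 with tamoxifen replicate 2 left out. Krt222, the most accessible of them, had 57.6, 70.7 and 67.8 calibrated reads in the untreated and 95.03, 72.8 and 83.9 after tamoxifen, with no overlap. Of 541 chemosensory receptor promoters 43 passed, with a median of -0.057 that moved to -0.17 after centring by GC content. The 33 clustered protocadherin promoters, at a median GC content of 47.3%, had a median of 0.10, which moved to 0.033 after centring, and ranged from 0.016 with tamoxifen replicate 2 left out to 0.22 with tamoxifen replicate 1 left out. Of the 13 fibroblast promoters 8 passed, with 1 wholly lower and 1 wholly higher and a median of 0.13 that was -0.034 without tamoxifen replicate 3. Col1a1 was lowest, with 26.0, 22.7 and 21.1 against 6.41, 11.8 and 13.3 calibrated reads, and Col3a1 highest at 0.59, so that these markers lay on both sides of 0.

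**Figure D5:**
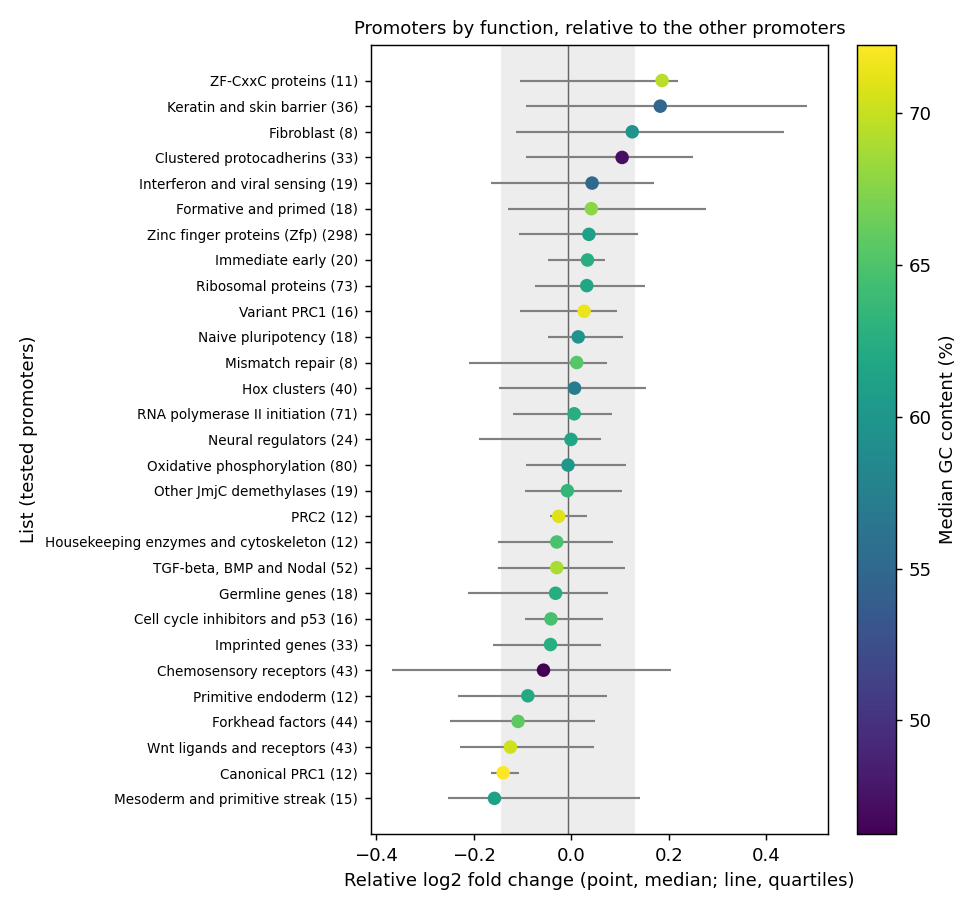
Relative log2 fold change of the lists with at least 8 tested promoters, as median (point, coloured by the median GC content of the list) and quartiles (line), with the quartiles of all tested promoters shaded. The lists' medians run from -0.16 for mesoderm and primitive streak regulators to 0.19 for ZF-CxxC proteins, with the shaded range reaching from -0.14 to 0.13.

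Chromosomes were compared on the relative scale. Over the 20 chromosomes with promoters tested, the median of the treated minus the untreated libraries ran from -0.031 on chromosome 8 to 0.017 on the X chromosome. With 3 libraries a group the lowest possible exact permutation p is 0.1, so no chromosome could pass a p of 0.05. The smallest p after adjustment over the 20 tests was 1.0 (exact permutation). Chromosome 8 was the only chromosome whose groups did not overlap (exact permutation p = 0.1), with -0.013, 0.014 and -0.012 in the untreated and -0.019, -0.018 and -0.067 in the treated libraries, the lowest value being that of tamoxifen replicate 3. With median-of-ratios scaling its groups overlapped. The X chromosome varied most between libraries: its median was -0.089, -0.049 and 0.12 in the untreated and -0.078, 0.011 and 0.098 in the treated libraries. In both groups replicate 1 was lowest and replicate 3 highest. The range on the X chromosome was 0.21, where those of the autosomes lay between 0.027 and 0.096.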

How the data were processed

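cATAC-seq libraries were assigned to groups from the sample labels. The authors aligned reads with Bowtie 2 to concatenated mm10 and dm6 genomes, removed multiply mapped, duplicate and blacklisted reads, and counted mouse reads at promoters. The deposited signal is this count divided by a spike-in size factor corrected by input genomic DNA, one table per line. The deposited fold changes, p-values and other columns of the authors' own comparisons were not used, and the input DNA samples and the single CXXC lines were not analysed here.

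Whole reads were recovered from the value steps (100% of values within 0.01). Promoters were filtered with filterByExpr of edgeR 4.0.16 and tested with limma 3.58.1 (trend) on log2(value + 1), which understates changes at low values; relative values used TMM. The count tests were run on recovered reads only as alternatives, with edgeR and DESeq2 1.42.0. Per-library medians were tested by exact permutation (two-sided). GC content and sequences came from GRCm38.p6 (RefSeq), the same build as mm10; symbols matched 99.1% of identifiers and 97.5% of intervals had a start site within 200 bp of their centre. Depth (1528215 to 2091769 reads) limits precision, and PCR copies were removed without molecular identifiers.

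Samples, lists and named promoters were chosen with earlier results of these data known. Named were Kdm2a and Kdm2b, every promoter past both thresholds, the 5 lower and 5 higher with the smallest unadjusted p on the relative scale, the 5 most accessible, and in each list the lowest, highest and most accessible member; the marker genes Pou5f1, Nanog, Sox2, Gata4 and Sox1 came from the marker list. Some members of the lists are not reported here. The fits were tested on simulated reads for the Kdm2a/b-JmjC comparison (17174 promoters, 200 changed). Same-numbered libraries deviated together weakly at single promoters (r = 0.0451, 0.0597 and 0.0724), where other pairs had r from -0.058 to 0.0008. Some chromosome medians followed the replicate number and others, such as chromosome 13, did not. Chromosome 11 had -0.0073, 0.049 and -0.045 in untreated and -0.017, 0.043 and -0.046 in treated libraries. No pairing of replicates is stated, so the main tests left the number out. A fit with a replicate block, run as an alternative, gave 62 calls on the calibrated scale beside 13. The alternatives covered the test, filter, pseudocount, scaling, GC content, replicate block and left-out libraries.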

Additional observations from a re-analysis of the deposited data

Results flagged for a closer look

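In the Kdm2a/b-CXXC line, used here only for comparison, the median of the most GC-rich quintile of promoters minus that of the least was -0.22 in tamoxifen replicate 3 against 0.034, 0.010 and 0.048 in the other treated libraries. The gap to its nearest neighbour was 0.856 of the range of the group, more than the 95% critical value for 4 libraries. Chance gives such a gap in about 1 of 20 groups. The value of -0.035 for the GC difference in that line rests on this library: with it left out the value was 0.026, and the difference between the lines moved from -0.12 (exact permutation p = 0.28) to -0.18 (exact permutation p = 0.02).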

How the results depend on the processing

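On the calibrated scale the count of 13 promoters was 12 with DESeq2 (3 of them among the 13) and 14 with a pseudocount of 0.5, but 114 with edgeR's quasi-likelihood test, 100 with a mean of at least 20 reads, 71 with a pseudocount of 5, 62 with the replicate block, 0 without a filter (3559 at an unadjusted p under 0.05) and 0 with TMM scaling (966). Leaving out 1 library gave 0 to 622. All these calls were lower. Under the replicate block all 13 were called again, and the block changed no other result's call; it left the shift at -0.21 and the GC difference at -0.15. Each library correlated best with its own number, a hint from the data and not from the design. Relative counts were 0 under each of the 17 alternatives run, with 472 to 1174 promoters at an unadjusted p under 0.05. Over TMM scaling, the replicate block and the 6 fits without single libraries, the 13 promoters stayed below 0, and of these 104 values 44 stayed past the thresholds and 60 did not. These fits reuse the libraries by which the 13 were selected, so that they stayed below 0 is no separate evidence.

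The shift stayed between -0.26 and -0.17 when single libraries were left out, the level difference between -0.13 and -0.046 and the GC difference between -0.17 and -0.12. The number of chromosomes without overlap was 0 with median-of-ratios scaling and 1 to 6 without single libraries. The difference from Kdm2a/b-CXXC lay between -0.39 and -0.19 in the shift and between -0.18 and -0.083 in the GC difference when single libraries were left out, and passed a p of 0.05 only with Kdm2a/b-CXXC tamoxifen replicate 4 left out for the shift and replicate 3 for the GC difference. Of 155 list medians recomputed under other scaling, pseudocount, GC centring or left-out libraries, 23 moved by more than the spread between libraries; these, the GC comparison of the lines, the ratio to the mean of all 6 libraries and the split within GC quintiles were chosen after seeing the data. With 3 libraries a group, per-library medians could not pass a p of 0.05, and depth limits what can be seen at closed promoters.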
